A study of Mus musculus with 6 samples.

Results

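Nuclei carrying the transcripts of natural killer (NK) cells and none of the T-cell receptor complex subunits Cd3e, Cd3g and Cd3d were examined in subcutaneous white adipose tissue of mice on a high-fat diet. They were selected on their own counts: at least 500 detected genes, at most 5% mitochondrial UMIs (unique molecular identifiers, each standing for 1 captured transcript), at least 3 detected genes of Ncr1, Klrb1c, Gzma, Nkg7, Samd3, Klre1, Klra8 and Klra7, and no UMI of the 3 Cd3 genes. These 344 nuclei, called the NK gate, made up 0.559% of 61496 kept nuclei (95% Clopper-Pearson interval 0.502 to 0.622) out of 65162 deposited barcodes. The 6 libraries came from 3 GPSM1ΔTreg mice, called Treg knockout, and 3 GPSM1f/f mice, called flox control. All of them carry, by the genotype names, a Gpsm1 gene flanked by loxP sites. In GPSM1ΔTreg mice that gene is deleted in regulatory T (Treg) cells, and neither the Cre driver nor the deleted exons are given in the labels. The labels give a high-fat diet of 12 weeks in both groups, while the protocol gives 5 to 12 weeks from an age of 7 weeks. Nuclei were sorted on DAPI and made into droplet-based 3′ libraries, and the labels give n = 3 mice per genotype with no link between the mice and the replicate numbers. Every pair of libraries shared 24 to 44 barcodes, and no library was a copy of another. Intervals and detection limits below cover counting error only.

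NK cells are innate lymphocytes that kill stressed, infected or transformed cells with perforin and granzymes and that secrete interferon gamma and chemokines. They carry no rearranged antigen receptor. Activating receptors such as NKp46 (Ncr1) and NKG2D (Klrk1) and inhibitory receptors such as Ly49 (Klra) and CD94-NKG2A (Klrd1 and Klrc1) set the threshold for killing, and the transcription factors T-bet (Tbx21) and Eomes, with RUNX factors, are needed for their development. In obese adipose tissue, NK cells are known as a source of interferon gamma that acts on macrophages, and they lie beside type 1 innate lymphoid cells (ILC1), with which they share many genes.

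The 250 bases before the start of 4 genes are shown because 2 of the genes were used to choose the nuclei (Ncr1 and Klra8) and the other 2 carry the receptor and granule results (Klrk1 and Prf1). The sequences are from RefSeq on GRCm38.p6, written 5′ to 3′ on the strand of the gene, and capitals mark TGTGGT or its complement ACCACA, the core of a RUNX motif. GGTGTG and its complement CACACC, the core of a T-box motif, were searched in the same way on both strands and are in none of the 4, and no match overlapped another.
Ncr1, chr7:4337465-4337714, plus strand: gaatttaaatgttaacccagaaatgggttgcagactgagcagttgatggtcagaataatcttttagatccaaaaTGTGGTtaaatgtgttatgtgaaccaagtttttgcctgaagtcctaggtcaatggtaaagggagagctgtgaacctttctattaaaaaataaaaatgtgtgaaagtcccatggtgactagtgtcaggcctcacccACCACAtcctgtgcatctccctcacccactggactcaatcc
Klra8, chr6:130129899-130130148, minus strand: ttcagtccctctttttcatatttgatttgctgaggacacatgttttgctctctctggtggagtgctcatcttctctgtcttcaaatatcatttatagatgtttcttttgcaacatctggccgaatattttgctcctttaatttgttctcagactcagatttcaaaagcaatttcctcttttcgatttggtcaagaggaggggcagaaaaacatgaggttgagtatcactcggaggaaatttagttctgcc
Klrk1, chr6:129623865-129624114, minus strand: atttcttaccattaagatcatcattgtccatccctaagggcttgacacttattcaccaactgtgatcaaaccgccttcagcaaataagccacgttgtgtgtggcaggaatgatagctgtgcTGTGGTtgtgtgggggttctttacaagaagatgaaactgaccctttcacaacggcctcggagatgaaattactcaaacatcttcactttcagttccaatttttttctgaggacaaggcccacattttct
Prf1, chr10:61297586-61297835, plus strand: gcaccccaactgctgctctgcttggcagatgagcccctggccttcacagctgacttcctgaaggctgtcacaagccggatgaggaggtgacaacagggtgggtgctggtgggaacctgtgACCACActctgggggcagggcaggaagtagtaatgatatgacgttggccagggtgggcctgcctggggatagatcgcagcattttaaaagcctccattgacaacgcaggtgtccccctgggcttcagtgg
The RUNX core occurred 2 times before Ncr1, 1 time each before Klrk1 and Prf1, and not in the window before Klra8. Of 32851 windows of the same length before mouse genes, 14.0% hold it and 16.3% hold the T-box core. A match is a string of letters and not a shown binding site.

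The genes that chose the nuclei are given as a description. They were fitted with all other genes between genotypes and left out of the comparisons with other gates. None of them was called between genotypes, but the nuclei were chosen on these genes, so this is no test of their level. Levels here and below are UMIs of a gene per 1e6 UMIs summed over the gate nuclei of a library (CPM), and groups are given as mean ± SD with n = 3 libraries. Ncr1, which encodes NKp46 (ENSMUSG00000062524, GRCm38 chromosome 7, 4337724 to 4345164), had 891, 1207 and 791 CPM in knockouts 1, 2 and 3, against 891, 1148 and 809 CPM in flox controls 1, 2 and 3. The groups overlapped for Ncr1, and T-cell gate nuclei held 0.155 CPM of it. Gzma, the granule protease granzyme A, had 1799, 2983 and 2044 CPM in the knockouts against 2528, 4012 and 1394 CPM in the flox controls, also overlapping. Klra7 and Klra8, the Ly49G and Ly49H receptors, averaged 678 ± 140.2 and 976 ± 309 CPM in the knockouts, against 409.9 ± 24.6 and 672 ± 154 CPM in the flox controls. Klra7 was the 1 of the 8 rule genes whose knockout libraries all lay above the flox libraries, beside 7.86% of the 2813 genes tested. It had 739, 778 and 518 CPM in the knockouts against 404, 389 and 437 CPM in the flox controls. Klra genes are close paralogs whose reads can be split or dropped in counting, so single members are uncertain.

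Each rule gene was detected in part of the gate. Klrb1c (NK1.1) was found in 83.4% of the 344 nuclei, Ncr1 in 80.5%, Klre1 in 72.1%, Samd3 in 70.1%, Nkg7 in 66.3%, Gzma in 64.2%, Klra8 in 42.7% and Klra7 in 41.6%. Adipocyte-gate nuclei, which should lack them, had a UMI of each in 0.126% to 0.458% at median depths of 3432 to 9371 UMIs per nucleus, against 1289.5 to 1895 in the NK gate. Ly49 receptors are known for expression in overlapping subsets of NK cells. Of the 11 Klra genes in the files, the median gate nucleus had UMIs of 2, and 201 nuclei (58.4%) had UMIs of 2 or more. Klra7 and Klra8 are among the 11 and helped choose the nuclei, and at these depths a gene with no UMI may still be expressed.

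Just inside the threshold lay 27 knockout and 19 flox nuclei with 3 NK genes, and just outside it 50 knockout and 29 flox nuclei with 2 NK genes and no Cd3 UMI. The nuclei with 4 to 8 NK genes numbered 141 in the knockouts and 157 in the flox controls. Klrk1, which the rule did not use, had, pooled over the 3 libraries of a group as for all values in this comparison, 1332 CPM in knockout nuclei with 3 NK genes against 1122 CPM in flox nuclei with 3, and 420 CPM in knockout nuclei with 2 against 244 CPM in flox nuclei with 2. In nuclei with 4 to 8 NK genes Klrk1 had 1580 CPM in the knockouts against 1234 CPM in the flox controls. The nuclei at the lower edge also held other cells' transcripts: the B-cell gene Bank1 had 2362 CPM in knockout nuclei with 3 NK genes against 133 CPM in flox nuclei with 3, and in nuclei with 4 to 8 it had 362 CPM in the knockouts against 109 CPM in the flox controls. Among nuclei with 3 or more NK genes, 98 in the knockouts and 18 in the flox controls carried a Cd3 UMI and were left out by the rule.

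**Figure D1:**
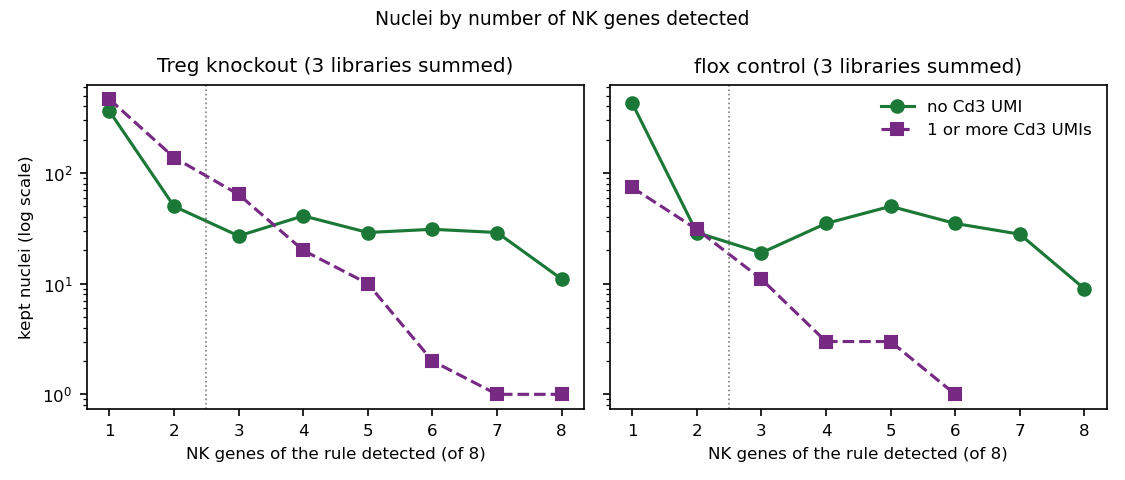
Kept nuclei (log scale) by the number of the 8 NK genes detected, without and with a Cd3 UMI, summed over the 3 Treg knockout libraries (left) and the 3 flox control libraries (right). Right of the dotted line, the nuclei without a Cd3 UMI are the 168 knockout and 176 flox nuclei of the NK gate, and those with a Cd3 UMI number 98 in the knockouts and 18 in the flox controls.

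The label was checked against markers of other cells. Foxp3, the Treg factor, had no UMI in the gate (0 of 344 nuclei; nuclei with a UMI could still make up 0.872%, which does not limit the share that express it), and neither did Il23r, Il17a and Il22 of ILC3 or Il13 and Areg of ILC2. Cd4 had 1 UMI and Cd5 had 5 UMIs in the whole gate. The gate was not free of other transcripts: 131 nuclei held 2 or more genes of another cell type's list, 66 of 168 in the knockouts and 65 of 176 in the flox controls. The summed level of 8 B-cell genes was 1173, 269 and 2063 CPM in knockouts 1, 2 and 3, against 90.3, 54.2 and 586 CPM in flox controls 1, 2 and 3. The summed level of 9 T-cell genes outside Cd3 was 959, 259 and 480.3 CPM in the knockouts, against 259, 136 and 362 CPM in the flox controls. The B-cell and T-cell sums overlapped between groups, with knockouts 1 and 3 the highest in both. The summed level of 8 macrophage genes was 219.9, 89.8 and 226 CPM in the knockouts, against 389, 804 and 539 CPM in the flox controls, with no overlap. The adipocyte list overlapped widely, at 141 to 2005 CPM in the knockouts against 515 to 2669 CPM in the flox controls.

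**Figure D2:**
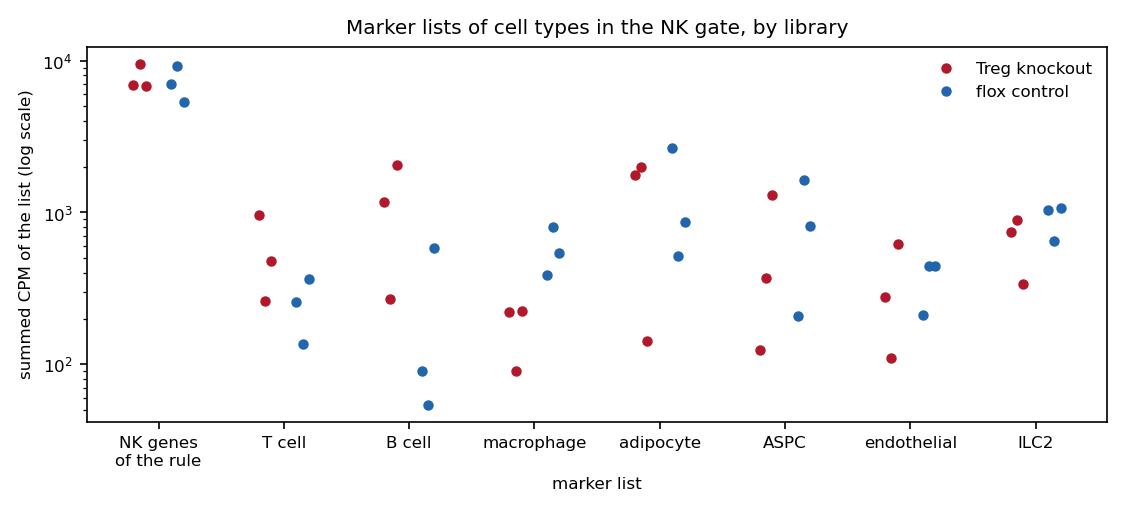
Summed CPM (log scale) of marker lists in NK gate nuclei, 1 point per library, with Treg knockout left of flox control within each list. The NK genes of the rule lie between 5316 and 9506 CPM in all 6 libraries, while the B-cell list spans 269 to 2063 CPM in the knockouts against 54.2 to 586 CPM in the flox controls.

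The share of NK gate nuclei in the tissue did not differ between genotypes beyond the spread of the libraries. The gate held 72, 56 and 40 nuclei in knockouts 1, 2 and 3, against 85, 51 and 40 nuclei in flox controls 1, 2 and 3. These were 0.673, 0.544 and 0.391% of kept nuclei in the knockouts (95% intervals 0.527 to 0.847, 0.411 to 0.706 and 0.279 to 0.532), against 0.839, 0.514 and 0.392% in the flox controls (0.671 to 1.04, 0.383 to 0.676 and 0.2799 to 0.533). The groups overlapped, at 0.536 ± 0.141% in the knockouts and 0.582 ± 0.231% in the flox controls (SD, n = 3 each; exact two-sided permutation p = 0.8). The direction of this difference turned without knockout 3 (0.0269 percentage points, knockout minus flox) and without flox control 1 (0.0830).

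Set against the other lymphocytes, NK gate nuclei were the smaller share in every knockout library. Of the nuclei in the NK, T-cell and B-cell gates together, the NK gate was 1.29, 3.30 and 1.12% in knockouts 1, 2 and 3, against 19.2, 19.7 and 4.05% in flox controls 1, 2 and 3. The groups did not overlap, at 1.90 ± 1.21% in the knockouts and 14.3 ± 8.89% in the flox controls (SD, n = 3 each; p = 0.1 by exact two-sided permutation, and no smaller p is possible with 3 libraries a group). The T-cell gate (1 or more Cd3 UMIs and under 3 NK genes) held 1361, 385 and 1226 nuclei in the knockouts against 170, 96 and 224 in the flox controls. Of these, 74, 51 and 140 in the knockouts and 22, 12 and 82 in the flox controls also held 3 or more adipocyte genes. Likewise, 253, 47 and 450 in the knockouts and 7, 1 and 36 in the flox controls held 2 or more B-cell genes. The B-cell gate (3 or more of 8 B-cell genes, no Cd3 UMI and under 3 NK genes) held 4146, 1257 and 2295 nuclei in the knockouts against 188, 112 and 724 in the flox controls. The counts of the NK gate overlapped between genotypes, while those of the T-cell and B-cell gates were higher in every knockout library. With the B-cell gate left out of the denominator, the share was 6.96% in the knockouts and 27.7% in the flox controls.

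**Figure D3:**
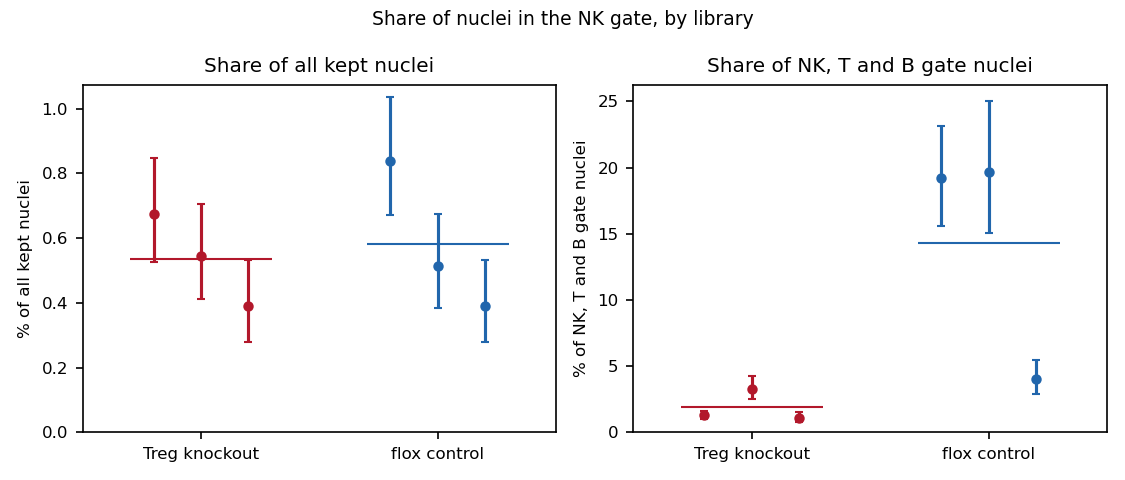
Share of NK gate nuclei among all kept nuclei (left, %) and among NK, T-cell and B-cell gate nuclei (right, %), 1 point per library with its 95% Clopper-Pearson interval, and the group mean as a line. On the left the groups overlap, and on the right the knockout libraries lie between 1.12 and 3.30%, below the flox libraries at 4.05 to 19.7%.

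The rule's second part, the absence of Cd3 UMIs, removed more nuclei in the knockouts. Of nuclei with 3 or more NK genes, 44.2, 17.6 and 42.0% carried a Cd3 UMI in knockouts 1, 2 and 3, against 8.60, 10.5 and 9.09% in flox controls 1, 2 and 3 (34.6 ± 14.7% in the knockouts and 9.41 ± 1.0001% in the flox controls; SD, n = 3; exact permutation p = 0.1, no overlap). A Cd3 UMI was also found in 7.76 ± 6.68% of knockout against 1.33 ± 1.15% of flox nuclei with 3 or more B-cell genes (exact permutation p = 0.1, n = 3), and in 3.89 ± 1.89% of knockout against 1.05 ± 0.862% of flox adipocyte-gate nuclei (exact permutation p = 0.2, n = 3). The part of free RNA and of joined nuclei in these shares was not tested. With or without Cd3 UMIs, nuclei with 3 or more NK genes were 0.847% of kept nuclei in the knockouts and 0.641% in the flox controls, a numerator added after the data were seen (exact permutation p = 0.5, n = 3).

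Gate nuclei were compared with T-cell gate nuclei of the same libraries to describe which other genes travel with the 8 chosen ones. The 11 genes of the rule were left out, and the 5637 remaining genes were fitted on sums per library and gate with library as a block (edgeR quasi-likelihood test, Benjamini-Hochberg adjustment, threshold 0.05). Both gates were chosen on these same nuclei, so genes that go with the rule's genes were bound to differ. Some T-cell gate nuclei also held adipocyte or B-cell genes, as given above, and their part in the differences was not tested. In all, 330 genes were higher in the NK gate (5.85% of those tested) and 164 lower (2.91%), and without knockout 2 the lower genes numbered 105. Log2 fold changes are NK gate over T-cell gate, and n is 6 libraries for each gate.

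Receptors led the higher genes. Of the list of 23 killer lectin receptors outside the rule, 21 are in the files and 12 were tested, and the 12 were all higher, with a median log2 fold change of 5.63 against -0.03 over all genes tested. Klra4 (Ly49D, an activating receptor; chromosome 6, 130043731 to 130067271) had 389, 708 and 631 CPM in the NK gate of knockouts 1, 2 and 3 and 522, 632 and 307 CPM in that of the flox controls, and 443 UMIs in the NK gate against 3 UMIs in the T-cell gate. That is a ratio of pooled levels of 2084 with a counting interval of 708 to 10144 (adjusted p = 1.6e-08, higher in 6 of 6 libraries). Klrk1 (NKG2D; chromosome 6, 129610323 to 129623864), whose promoter is shown above, averaged 1383 ± 211 CPM in the NK gate against 82.0 ± 49.5 CPM in the T-cell gate (log2 fold change 4.31, SE 0.35, adjusted p = 0.000238). It was found in 88.1% of gate nuclei (84.2 to 91.3), in 11.01% of T-cell gate and in 0.698% of adipocyte-gate nuclei. After thinning each nucleus to 1000 UMIs these were 71.6% in the NK gate, 6.85% in the T-cell gate and 0.244% in the adipocyte gate.

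CD94 and its inhibitory and activating partners were all higher. Klrd1, CD94 itself, averaged 811 ± 119 CPM in the NK gate against 91.1 ± 36.5 CPM in the T-cell gate (log2 fold change 3.21, SE 0.18, adjusted p = 1.19e-07). Klrc1 (the inhibitory NKG2A) averaged 441 ± 88.4 against 15.6 ± 15.5 CPM, and Klrc2 (the activating NKG2C) 559 ± 60.9 against 14.5 ± 8.73 CPM, in the NK and T-cell gates. Styk1, a kinase-like membrane protein, averaged 418 ± 106 CPM in the NK gate against 3.66 ± 2.76 CPM in the T-cell gate. Klri2, Klrb1a, Klrb1b, Klra9, Klrc3 and Klra3 were the other lectin receptors among the 12 largest rises. Many of these genes are neighbours: the stretch of chromosome 6 from 128609227 to 131247362 that spans 24 Klr genes holds 51 genes of the files, of which 17 were tested and 13 were higher, 12 of these lectin receptors of that family and 1 the unnamed gene BC035044. The 4 not called higher there were Clec2d, Clec2i, Gm15987 and 2310001H17Rik.

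Cytotoxic genes followed. Prf1, perforin (chromosome 10, 61297833 to 61304680), had 293, 419 and 452 CPM in the NK gate of the knockouts and 487, 605 and 335 CPM in that of the flox controls, and averaged 432 ± 112 CPM in the NK gate against 15.8 ± 5.02 CPM in the T-cell gate (log2 fold change 4.74, SE 0.21, adjusted p = 1.6e-08). Gzmb, granzyme B, averaged 197 ± 63.5 against 5.59 ± 7.26 CPM, and Fasl, the death ligand, 108 ± 44.2 against 11.6 ± 9.67 CPM, in the NK and T-cell gates. Of 18 granule and death ligand genes, 11 were tested, 6 were higher and none was lower (median log2 fold change 1.92). The secretion genes Srgn, Lamp1 and Rab27a were not called, at log2 fold changes of 0.12, -0.00 and 0.59. Adamts14, a procollagen protease, averaged 354 ± 87.8 CPM in the NK gate against 6.18 ± 2.24 CPM in the T-cell gate and lies 24394 bases from Prf1. Cdc20b had 44 UMIs in the NK gate against 3 in the T-cell gate and lies 2629 bases from Gzma on the other strand. Whether reads of the granule genes reach these neighbours was not tested.

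Chemokines made by NK cells were higher. Ccl5 averaged 790.0 ± 308 CPM in the NK gate against 63.3 ± 53.4 CPM in the T-cell gate, Ccl4 321 ± 218 against 18.4 ± 17.8 CPM, and Xcl1, which attracts cross-presenting dendritic cells, 155 ± 149.7 against 5.19 ± 6.88 CPM. These 3 were the higher ones of 7 tested among 14 cytokines and chemokines, and Ltb, lymphotoxin beta, was lower (median -0.00). Ifng was too low for the test, with a UMI in 5.81% of gate nuclei (3.59 to 8.84) against 0.751% of T-cell gate and 0.0229% of adipocyte-gate nuclei.

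Cytokine receptors split. Of 18 tested, 9 were higher and 5 lower in the NK gate (median 0.54). Il2rb, the shared beta chain of the IL-2 and IL-15 receptors on which NK cells depend, averaged 741 ± 140.2 CPM in the NK gate against 112 ± 34.1 CPM in the T-cell gate (log2 fold change 2.80, SE 0.19, adjusted p = 6.55e-07). Il18rap averaged 955 ± 159 against 71.1 ± 27.3 CPM, and Il12rb2 207 ± 63.1 against 12.2 ± 11.5 CPM, in the NK and T-cell gates. These chains let NK cells respond to IL-18 and IL-12. Il6st, Il6ra, Il21r, Il27ra and Tgfbr2 were the 5 lower ones.

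Signalling adaptors and homing receptors were mostly higher or not called. Tyrobp (DAP12) averaged 285 ± 69.1 CPM in the NK gate against 19.4 ± 9.16 CPM in the T-cell gate, and Fcer1g 238 ± 43.0 against 15.7 ± 5.38 CPM (adjusted p = 1.91e-07 and 4.37e-08). Of 23 adaptors and kinases tested, 10 were higher and 1 lower (median 0.43). Of 14 chemokine and homing receptors tested, 9 were higher and 3 lower (median 0.87), with Ccr2, a receptor for entry into inflamed tissue, at 432 ± 75.6 against 115 ± 59.2 CPM in the NK and T-cell gates.

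Transcription factors were less uniform than receptors. Of 23 tested, 11 were higher and 3 lower (median 0.33). Tbx21, T-bet, averaged 376 ± 94.96 CPM in the NK gate against 49.5 ± 26.3 CPM in the T-cell gate (log2 fold change 3.07, SE 0.21, adjusted p = 5.16e-07). Eomes, which separates NK cells from most ILC1, averaged 75.6 ± 17.0 against 16.7 ± 8.28 CPM (2.30, SE 0.30, adjusted p = 0.000194), with 66 UMIs in the gate and a UMI in 17.2% of its nuclei (13.3 to 21.6). Id2, Klf12, Stat4, Irf8 and Zeb2 were among the others that were higher. Of 8 tested ILC1 and tissue residency genes none was higher and 2 were lower (median -0.50): Inpp4b, a phosphoinositide phosphatase, at 538 ± 168 CPM in the NK gate against 1788 ± 634 CPM in the T-cell gate, and Cxcr6 at 25.0 ± 19.1 against 105 ± 53.8 CPM. T-cell gate nuclei themselves held much of this list, at a summed mean of 3862 CPM against 1897 CPM in the NK gate. A comparison with them therefore cannot tell NK cells from ILC1. Itga1 (CD49a, an ILC1 marker) was not called (log2 fold change 0.08, adjusted p = 0.948), and it had a UMI in 17.4% of gate nuclei and in 67.8% of adipocyte-gate nuclei. Itga2 (CD49b, the NK-cell counterpart) averaged 557 ± 124 CPM in the NK gate against 26.8 ± 10.8 CPM in the T-cell gate (4.44, SE 0.18, adjusted p = 1.6e-08).

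Among the 164 lower genes were all 8 T-cell genes tested, with a median log2 fold change of -3.08, and the rule's demand for no Cd3 UMI bears on them. Themis, a thymocyte selection factor, averaged 54.2 ± 78.3 CPM in the NK gate against 864 ± 237 CPM in the T-cell gate, and rested on 175 CPM in knockout 1 and 132 CPM in knockout 3, with 18.6 CPM in flox control 3 and 0 in the other 3 libraries. Without flox control 3 its adjusted p was 0.0636, the highest over its alternatives, which went down to 1.29e-05. Bcl11b, needed for T-cell identity, averaged 76.1 ± 66.9 against 647 ± 108 CPM, and Cd5 4.70 ± 11.5 against 130.3 ± 47.6 CPM, in the NK and T-cell gates. Cd163l1, known as a marker of gamma delta T cells that make IL-17, and Il23r, the IL-23 receptor, had no UMI in the NK gate. Against the floor of 3 UMIs over the pooled gate they were at least 25.3-fold and 20.2-fold lower than in the T-cell gate. St8sia1, Cd4, Cd6, Cd8b1, Pde11a, Gm44174 and Ntrk3 completed the 12 largest falls. Gm44174 lies 15540 bases from Cd8b1 on the same strand, and its call was lost without knockout 1, knockout 2, flox control 2 or flox control 3, with adjusted p of 0.0524 to 0.0641 there.

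**Figure D4:**
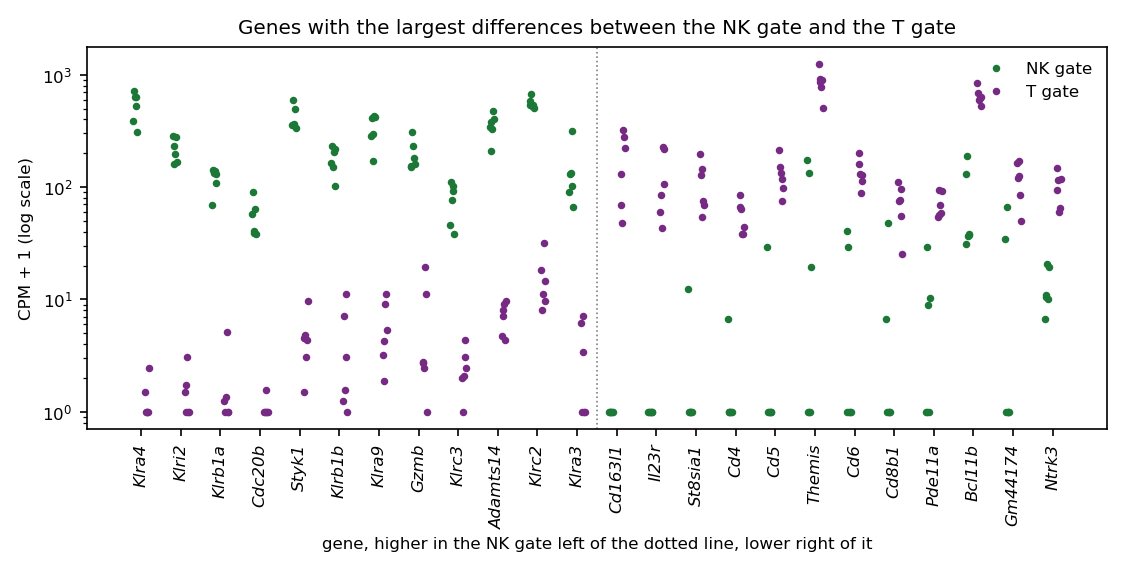
Levels (CPM + 1, log scale) of the 12 genes with the largest rises and the 12 with the largest falls in NK gate nuclei against T-cell gate nuclei, 1 point per library and gate, with the NK gate left of the T-cell gate for each gene. The 6 NK gate libraries lie above the 6 T-cell gate libraries for the genes left of the dotted line, and within each library the NK gate lies below the T-cell gate for the genes right of it.

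Of the 330 higher genes, 254 had a promoter window in the RefSeq table, and the RUNX core was in 39 of these (15.4%), against 9.92% of the 4467 tested genes with a window. The T-box core was in 16.1% of the higher genes' windows against 14.0% of the tested genes' windows. Over all 32851 windows before mouse genes, 14.0% held the RUNX core and 16.3% the T-box core. The differences between these shares were not tested.

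A second comparison was made among nuclei that pass the NK gene threshold, which differ by rule in Cd3. They differed in the rule's NK genes too. The summed level of these genes averaged 7445 CPM in the NK gate against 3353 CPM in the nuclei with Cd3. By library the latter was 2394, 1519 and 1903 CPM in the knockouts and 1770, 9876 and 2654 CPM in the flox controls. In flox control 2 it exceeded the 9207 CPM of the NK gate. At least 2 genes of another cell type's list were found in 131 of 344 NK gate nuclei against 101 of 116 nuclei with Cd3. The lists counted include the T-cell genes, which go with a Cd3 UMI, and 3248 of 3462 T-cell gate nuclei met the same count. The part of the NK gene levels and of other cells' transcripts in the differences below was not tested. The NK gate was set against the 116 nuclei that had 3 or more NK genes and a Cd3 UMI, in the same libraries and model with the rule genes left out. Of 2559 genes tested, 45 were higher in the NK gate (1.76%) and 16 lower (0.625%). Prf1 averaged 432 ± 112 CPM in the NK gate against 30.5 ± 28.7 CPM in the nuclei with Cd3 (log2 fold change 3.30, adjusted p = 0.000126), Styk1 418 ± 106 against 22.8 ± 28.7 CPM (3.55, adjusted p = 0.000126), and Gzmb 197 ± 63.5 against 33.9 ± 24.9 CPM (adjusted p = 0.0025), each higher in 6 of 6 libraries. Ccr2, Itgam (CD11b, a marker of mature NK cells), Tyrobp, Fcer1g, Itga2, Tbx21 and Id2 were also higher. Klrk1 and Klrd1 were not among the called genes. Themis, Trbc2 (a T-cell receptor constant segment), Bcl11b, Camk4 and Ikzf2 were lower, with Trbc2 at 41.7 ± 44.3 CPM in the NK gate against 252.4 ± 81.1 CPM. The nuclei with Cd3 held 98 knockout but 18 flox nuclei, with as few as 4 in flox control 3, and were deeper, at median depths of 1741.5 to 3731 UMIs against 1289.5 to 1895 UMIs in the NK gate.

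Between genotypes, no gene in NK gate nuclei passed the test. Of 2813 genes tested on the sums of each library (edgeR quasi-likelihood test, 3 against 3), 0 were called at an adjusted p under 0.05 (0.0%), 168 had an unadjusted p under 0.05, and DESeq2 called 1. Without knockout 2, Il7r was called higher and Ccl4 lower, and without flox control 1, Bicc1, Magi2 and Robo1 were called lower. With the highest Scrublet scores removed, Sidt1 was called higher and Dock4, Fstl1 and Slc8a1 lower, and with no filter on low genes 29 were called higher and 62 lower. The knockout libraries were all higher for 221 genes (7.86%) and all lower for 140 (4.98%). The gate sums held 177324, 100249 and 106174 UMIs in knockouts 1, 2 and 3, against 254770, 110674 and 107596 UMIs in flox controls 1, 2 and 3.

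The genes with the smallest p are given as values. Sidt1, a membrane transporter of nucleic acids, had 564, 329 and 443 CPM in the knockouts against 118, 145 and 112 CPM in the flox controls, with no overlap (log2 fold change 1.80, SE 0.27, edgeR adjusted p = 0.186, and 0.0227 with the highest Scrublet scores removed). In T-cell gate nuclei Sidt1 averaged 515 CPM in the knockouts and 245 CPM in the flox controls. In adipocyte-gate nuclei it averaged 11.2 CPM in the knockouts and 1.26 CPM in the flox controls. Over all libraries it averaged 285 CPM in the NK gate against 887 CPM in nuclei with NK genes and Cd3 (edgeR adjusted p = 0.00803). Pooled over the libraries of a group, Sidt1 had 742 CPM in knockout nuclei with 3 NK genes against 152 CPM in flox nuclei with 3. In nuclei with 4 to 8 it had 412 CPM in the knockouts against 119 CPM in the flox controls. Ikzf2 (Helios, a lymphocyte transcription factor) averaged 381 ± 129 CPM in the knockouts and 146 ± 35.8 CPM in the flox controls (1.37, edgeR adjusted p = 0.526). Fgf13, Apobec3 (a restriction factor for retroviruses) and H2-Q4 (a non-classical class I molecule) were the other 3 with higher values, at 690.4, 549 and 199.9 CPM in the knockouts against 228, 294 and 92.5 CPM in the flox controls.

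On the lower side, Prrx1, a mesenchymal transcription factor, averaged 36.3 ± 17.9 CPM in the knockouts and 168 ± 61.6 CPM in the flox controls (log2 fold change -2.36, edgeR adjusted p = 0.526). Slc8a1, a sodium-calcium exchanger, averaged 82.4 ± 42.2 CPM in the knockouts and 295 ± 77.0 CPM in the flox controls (log2 fold change -1.99, edgeR adjusted p = 0.526). With the highest Scrublet (doublet) scores removed its log2 fold change was -2.97 and it was called (edgeR adjusted p = 0.0170). The lysosomal genes Ctsb and Psap averaged 129 ± 35.7 and 240.4 ± 60.5 CPM in the knockouts, against 307 ± 47.8 and 520.1 ± 106 CPM in the flox controls. Scd1, a desaturase of fatty acid synthesis, averaged 98.6 ± 37.6 CPM in the knockouts and 247 ± 5.68 CPM in the flox controls. Ctsb and Psap were also lower in the T-cell gate of the knockouts, at 164 and 346 CPM in the knockouts against 398 and 628 CPM in the flox controls, and the macrophage list in the NK gate lay lower in every knockout library, as given above. Without the nuclei that held 2 or more genes of another cell type, 0 of 1223 genes were called by edgeR, with 84 at an unadjusted p under 0.05. Of the 10 genes 6 could then be tested and kept their direction. Their log2 fold changes were 1.42 for Sidt1, 1.17 for Fgf13, 0.79 for Ikzf2, 0.82 for Apobec3, -1.04 for Ctsb and -0.88 for Psap. The 10 were picked by p on nuclei that include these, so a kept direction is no separate test.

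**Figure D5:**
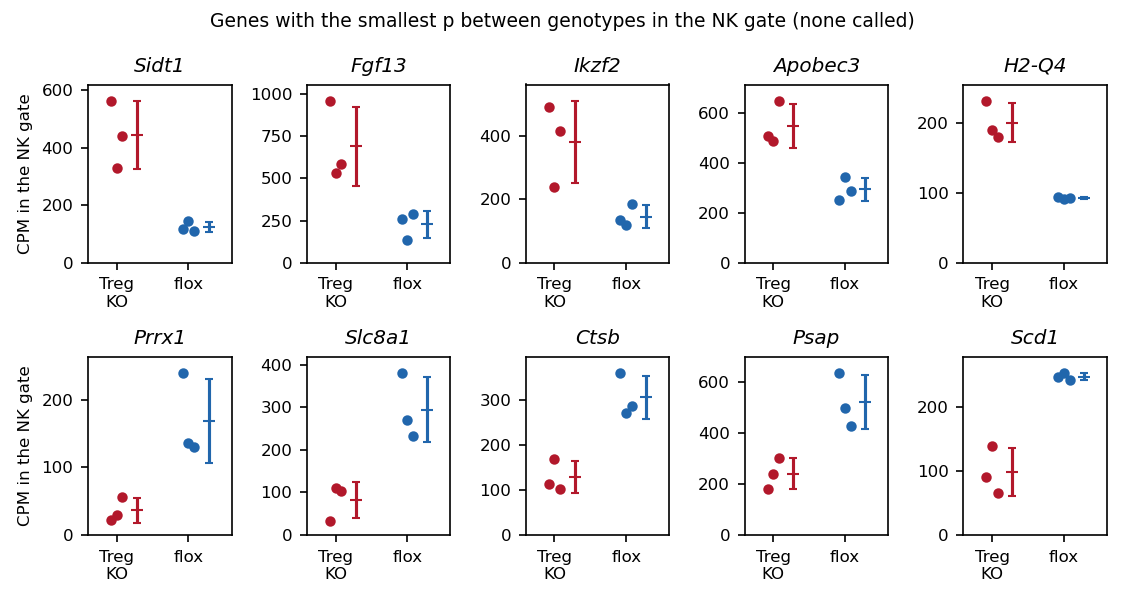
CPM in NK gate nuclei of the 10 genes with the smallest p between genotypes, 5 higher and 5 lower, 1 point per library with the mean and SD beside them, Treg knockout left of flox control. The 3 knockout points do not overlap the 3 flox points in any of the 10 panels. The genes were picked for the smallest p in these same libraries, and no gene passed the adjusted threshold.

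The gene groups of NK function showed no called member between genotypes. The median log2 fold change of knockout over flox was 0.01 over 17 tested NK identity genes, 0.04 over 11 killer lectin receptors, -0.01 over 10 granule genes, 0.25 over 20 adaptors and kinases, 0.19 over 14 cytokine receptors and 0.21 over 21 transcription factors, against -0.01 over all 2813 genes. In that order, knockout libraries all lay above the flox libraries for 3, 3, 1, 5, 4 and 4 of these genes. They all lay below for 0, 0, 0, 1, 1 and 1, beside 7.86% above and 4.98% below over all genes tested. The summed cytokine receptors had 5397, 5297 and 4954 CPM in the knockouts against 4196, 3867 and 4526 CPM in the flox controls. These did not overlap (exact permutation p = 0.1, n = 3 each), while the sums of the other lists named here did. Prf1 averaged 388 ± 83.8 CPM in the knockouts and 476 ± 136 CPM in the flox controls, and Klrk1 1538 ± 194 CPM in the knockouts and 1227 ± 32.6 CPM in the flox controls, the last without overlap (edgeR adjusted p = 0.817). The 3 tested cytokines, Ccl4, Ccl5 and Xcl1, had a median of -1.26. Ccl4 had 39.5, 329 and 84.8 CPM in knockouts 1, 2 and 3, against 565, 398 and 511 CPM in flox controls 1, 2 and 3, with no overlap (log2 fold change -1.83, SE 0.72, edgeR adjusted p = 0.816). Interferon response genes had a median of 0.45 over 5 tested.

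Of the listed genes, 183 were too low for the test, and 16 of these had no UMI in the gate. Compared by library, 13 of the 183 were higher in all knockout libraries and 6 lower, beside 7.86% and 4.98% of the tested genes. Ccl3, which encodes a chemokine that NK cells release on activation and lies beside Ccl4 on chromosome 11, had 11.3, 9.98 and 0 CPM in knockouts 1, 2 and 3, against 70.7, 145 and 158 CPM in flox controls 1, 2 and 3 (exact permutation p = 0.1 with n = 3 each, the smallest possible). A Ccl3 UMI was found in 2.78, 1.79 and 0% of knockout gate nuclei, against 12.9, 19.6 and 10.0% of flox gate nuclei, on 54 UMIs in all. In T-cell gate nuclei Ccl3 averaged 0.497 CPM in the knockouts and 3.94 CPM in the flox controls, and adipocyte-gate nuclei had a UMI of it in 0.0858%. After thinning to 1000 UMIs the share with a Ccl3 UMI was 1.48% in the knockouts and 7.23% in the flox controls. Klra1 (Ly49A) had 90.2, 79.8 and 141 CPM in the knockouts against 23.6, 9.04 and 37.2 CPM in the flox controls, and Klri1 had 84.6, 79.8 and 122 CPM in the knockouts against 39.3, 36.1 and 27.9 CPM in the flox controls, both without overlap. Ms4a1, the B-cell antigen CD20, was another of the 13, at 90.2, 49.9 and 151 CPM in the knockouts against 7.85, 0 and 18.6 CPM in the flox controls. So was the T-cell gene Trbc2, at 130, 29.9 and 37.7 CPM in the knockouts against 15.7, 9.04 and 27.9 CPM in the flox controls. The rest of the 13 were Stx11, Stxbp2, Ly9, Ltb, Cxcr6, Entpd5, Stat2, Bub1 and Itgae. Csf1r and Lyz2 of macrophages were among the 6 lower. The macrophage list also lay lower in every knockout library of the NK gate, as given above. The part of macrophage transcripts in the Ccl3 and Ccl4 values was not tested.

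Il7r was chosen for mention after its values were seen, since it was the 1 gene DESeq2 called. It had 801, 99.8 and 424 CPM in knockouts 1, 2 and 3, against 43.2, 63.2 and 27.9 CPM in flox controls 1, 2 and 3 (log2 fold change 3.27, SE 0.81, edgeR adjusted p = 0.526). Il7r encodes the IL-7 receptor alpha chain, carried by most T cells, by ILC1 and by few circulating NK cells. It was found in 36.1, 5.36 and 32.5% of knockout gate nuclei, against 8.24, 9.80 and 7.5% of flox gate nuclei, and the share overlapped between groups (exact permutation p = 0.4, n = 3 each). Knockouts 1 and 3, the libraries high in Il7r, were those high in the T-cell and B-cell lists. Pooled over the 3 libraries of a group, which hides the differences between them, Il7r had 1453 CPM in knockout nuclei with 3 NK genes against 114 CPM in flox nuclei with 3, and 318 CPM in knockout nuclei with 4 to 8 against 35.7 CPM in flox nuclei with 4 to 8.

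The series asks about GPSM1 and about Treg cells with CD73 (Nt5e) and CD103 (Itgae). Gpsm1, which modulates inhibitory G proteins, had 56.4, 49.9 and 65.9 CPM in knockouts 1, 2 and 3, against 11.8, 72.3 and 55.8 CPM in flox controls 1, 2 and 3, on 39 UMIs, and was too low for the test. With no Foxp3 UMI in the gate, these values do not check the deletion. A Gpsm1 UMI was found in 10.8% of gate nuclei and in 10.05% of the deeper adipocyte-gate nuclei. Nt5e was found in 3.49% of gate nuclei against 16.2% of T-cell gate and 2.84% of adipocyte-gate nuclei, and Itgae in 2.33% against 15.3% of T-cell gate and 5.21% of adipocyte-gate nuclei. Per UMI, Nt5e had 16.9, 0 and 84.8 CPM in the NK gate of knockouts 1, 2 and 3, against 7.85, 18.1 and 9.29 CPM in flox controls 1, 2 and 3, overlapping, beside 4.56 CPM in the adipocyte gate. Itgae had 33.8, 9.98 and 28.3 CPM in the knockouts, against 3.93, 9.04 and 0 CPM in the flox controls, with no overlap on 12 UMIs, beside 7.21 CPM in the adipocyte gate, and is one of the 13 low genes counted higher. The receptor for adenosine Adora2a, which restrains lymphocytes, was higher in the NK gate, at 89.1 ± 29.0 CPM against 20.2 ± 4.92 CPM in the T-cell gate (log2 fold change 2.16, SE 0.30, adjusted p = 0.000372, 6 of 6 libraries), as was the ectonucleotidase Entpd1 (CD39), at 150.5 ± 44.1 against 71.8 ± 18.0 CPM (1.05, SE 0.21, adjusted p = 0.00532). Between genotypes Adora2a averaged 102 ± 33.9 CPM in the knockouts and 75.8 ± 20.5 CPM in the flox controls (edgeR adjusted p = 0.91).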

How the data were processed

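The deposited matrices hold UMI counts, whole numbers for 32285 mouse genes in each barcode. Cell Ranger 7.1 and the builds mm10 and GRCh38 appear in the submitters' processing notes. The treatment of intronic reads is not given in the sources used here. The barcode and gene files hold names only. No doublet caller was applied in the main analysis, and removing the highest Scrublet scores (0.8% of barcodes per 1000, scanpy 1.11.5) was an alternative. Gate counts were summed per library, so a library is 1 replicate, and p-values between genotypes measure the spread between libraries. In the comparisons of gates, with library as a block, they measure how the difference between gates varies over the libraries. The gene tests used edgeR 4.0.16 (filterByExpr, TMM factors, robust fit) under R 4.3.3. DESeq2 1.42.0 was an alternative. The tests were tested on simulated data. Shares and single genes were compared by exact two-sided permutation. Positions are from GENCODE vM21 (GRCm38), which holds 99.8% of the gene identifiers.

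Genes named are the 12 largest called rises and falls with at least 20 CPM in the higher group or, where none was called, the 5 smallest p in each direction, with members of gene lists as examples of their counts, some of them named for a known role after their values were seen. Lists overlap in members. The members and the lists were chosen with earlier results of these data known. Of the listed genes, Klra13-ps, Klrh1, Mx1 and Mx2 were not analysed here, and the values of some other listed genes are not reported here. Library totals were 38857282 to 55342903 UMIs.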

Additional observations from a re-analysis of the deposited data

How the results depend on the processing

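The share of gate nuclei among kept nuclei, -0.0457 percentage points knockout minus flox, turned to 0.0184 with 2 or more NK genes, 0.00732 with 1000 or more genes, 0.268 outside the T-cell and B-cell gates and 0.206 with or without Cd3 UMIs (added after seeing the data), and leaving out 1 library gave -0.141 to 0.0830. It turned to 0.0269 without knockout 3 and to 0.0830 without flox control 1. The share among lymphocyte gates stayed lower in the knockouts under every alternative run, at -17.5 to -9.71 with 1 library left out. Genotype calls, 0 in the main test, became 1 higher with DESeq2 (Il7r) and 1 higher (Sidt1) and 3 lower (Dock4, Fstl1 and Slc8a1) with the highest Scrublet scores removed. With no filter they became 29 higher and 62 lower. Leaving out 1 library gave 0 to 1 higher and 0 to 3 lower: Il7r and Ccl4 without knockout 2, and Bicc1, Magi2 and Robo1 without flox control 1. Against the T-cell gate, 330 higher became 207 with 2 or more Cd3 genes (added) and 45 against nuclei with NK genes and Cd3, and 235 to 313 with 1 library left out. The 164 lower became 650 with no filter, 16 against nuclei with NK genes and Cd3, and 105 to 174 with 1 library left out, lowest without knockout 2. Of the named genes' values under alternatives, 114 between genotypes and 274 against the T-cell gate kept their side of the threshold, 10 passed it and 7 lost it, and none changed direction. The causes were not tested.

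Same-numbered libraries deviated together with correlations of 0.318, -0.221 and 0.287, so the numbers were not taken as pairs. With the replicate block, 0 genes were called between genotypes, and the shares had p = 0.75 (kept nuclei) and 0.25 (lymphocyte gates) by exact permutation within pairs. Gate sums of 100249 to 254770 UMIs were the depth of the genotype test, and 183 listed genes could not be tested between genotypes.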
